A study of Mus musculus with 6 samples.

Results

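Transcription factor genes that act in the somite, the sclerotome and the tendon precursors were followed in whole mouse embryos with and without an excess of *Mir483*. The members were taken from a given list of symbols, *Pax1*, *Pax9*, *Nkx3-2*, *Foxc1*, *Foxc2*, *Uncx*, *Meox1*, *Meox2*, *Tcf15* and *Scx*. Each symbol matched 1 Ensembl identifier, so that 10 of the 55401 genes in the count table were members, and all 10 were among the 16784 genes with enough counts to be tested. Both genotypes were whole embryos at E10.5. WT embryos were wild-type littermates, and 5C embryos carried an array of 5 extra copies of *Mir483* in the *Igf2* locus itself, made by cassette exchange in embryonic stem cells. There were 3 libraries of each genotype, each from 2 embryos pooled together, all male according to the methods. No tissue was dissected, so that every level is an average over the embryo, and fewer somitic cells cannot be told apart from less RNA per cell.

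Somites are blocks of paraxial mesoderm that form in pairs along the embryonic trunk. Their ventral part turns into the sclerotome under Hedgehog signals from notochord and floor plate and builds vertebrae and ribs, the dorsal part becomes the dermomyotome, and a thin layer next to the muscle precursors gives rise to tendons. Transcription factors of the paired box, homeobox, forkhead and basic helix-loop-helix families mark these compartments, and several of them also act outside the somite, in the pharyngeal pouches, the limb bud or the vessels.

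The libraries held 6357343 to 19151368 counts, and WT replicate 3 was the shallowest. *Mir483* checked the labels, since it stood at 0.577, 0.429 and 0.319 CPM (the count scaled to a common library total) in WT and 5.15, 4.35 and 2.56 CPM in 5C, with each 5C library above each WT library. *Igf2*, its host gene, was at 14.1 ± 4.95 CPM for WT and 10.1 ± 0.366 CPM for 5C (SD, n = 3 each). The adjusted p was 0.781 for a log2 fold change of -0.48 in edgeR's quasi-likelihood test, and the log2 fold change was -0.28 without WT replicate 1, -0.75 without WT replicate 2 (unadjusted p 0.000222, adjusted p 0.216) and -0.75 without both replicate 2 libraries. The *Igf2* count is uncertain, since *Gm49394* is annotated over it on the same strand, and how far this moves the count was not tested. In 3 respects libraries stood apart. The summed level of 4 Y-linked transcripts was 130 to 212 CPM in 4 libraries, but 4.12 CPM in WT replicate 2 and 0.0854 CPM in 5C replicate 2, against the male sex given in the methods. *Xist*, which female cells transcribe from their silenced X, was at 495 to 914 CPM over all 6 libraries, also against that sex. A list of 8 visceral endoderm and yolk sac markers summed to 6039 CPM in WT replicate 1, and to 119 to 1170 CPM in the other libraries. In WT replicate 3, 10 genes measured at least 10 CPM and more than 10 times their highest level in any other library, and 0 genes did so in each of the other 5 libraries. Log2 fold changes without some of these libraries are therefore given beside the results below.

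The mature products of the edited gene are shown because their seed, bases 2 to 8 in capitals, sets which letters a target transcript would carry. Both are RefSeq entries on GRCm38.p6, from the minus strand of chromosome 7.
miR-483-3p (chr7:142654932-142654952): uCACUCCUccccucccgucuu
miR-483-5p (chr7:142654968-142654989): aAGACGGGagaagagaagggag
A match to the whole seed reads AGGAGTG for miR-483-3p and CCCGTCT for miR-483-5p. The 3′ UTRs of the 10 regulators, taken from the longest annotated coding transcript and searched on the transcript strand alone, add up to 11925 bases and hold 0 matches to either. Among 13920 tested coding genes with an annotated 3′ UTR, 12.4% have the first of these matches and 3.44% the second, with a median 3′ UTR of 1196 bases against 946 bases for the regulators. A shorter match to bases 2 to 7 alone, GGAGTG, occurs in the 3′ UTRs of *Pax1* and *Foxc1*, and in 31.5% of the same coding genes. These 3 places are shown with the matching letters in capitals, and the base given is that of the first capital.
Pax1, from base 48 of the 3′ UTR: aggagccggccgGGAGTGcagctcagc
Pax1, from base 609 of the 3′ UTR: cacagtcccaagGGAGTGgggcttgaa
Foxc1, from base 2302 of the 3′ UTR: gccatgcatttcGGAGTGgcgtccagc
The corresponding letters for miR-483-5p, CCGTCT, are in 0 of the 10 and in 12.2% of the coding genes. A match describes the letters, and no match says only that they are not in these windows.

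Levels between genes were compared per length, as CPM per kilobase of exon. *Meox1* was the most abundant of the regulators at 18.5 to 24 CPM per kilobase over the 6 libraries, and its range lay above that of each other member. *Foxc1* followed with 9.68 to 11.4 and *Tcf15* with a mean of 8.71 CPM per kilobase, and their ranges overlapped although *Foxc1* was higher in 6 of 6 libraries. *Meox2* at 4.91 to 6.83 and *Foxc2* at 4.66 to 6.22 CPM per kilobase overlapped in the same way. *Meox1*, *Foxc1*, *Tcf15*, *Meox2* and *Foxc2* thus held the upper places. The sclerotome genes *Uncx* (1.78 to 3.08), *Pax9* (1.77 to 2.24), *Pax1* (1.31 to 2.31) and *Nkx3-2* (0.9 to 1.58 CPM per kilobase) and the tendon gene *Scx* (1.83 to 2.67) held the lower ones, and each neighbouring pair among these 5 had overlapping ranges. With the length of the longest coding transcript in place of all annotated exons, a choice made after the data were seen, *Scx* went from 2.13 to 4.13 and passed *Uncx*, and *Pax1* at 2.73 passed *Pax9* at 2.44 CPM per kilobase, while the other places stayed.

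**Figure D1:**
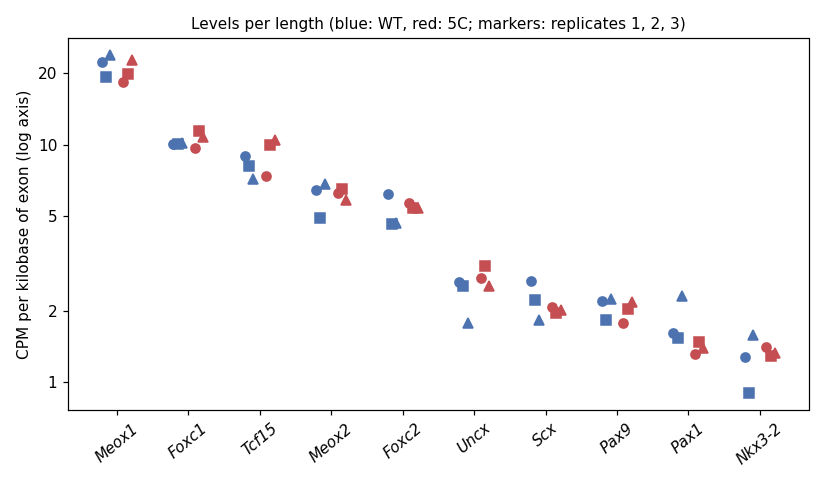
CPM per kilobase of exon on a log axis for the 10 regulators, ordered by their mean over 6 libraries, with WT in blue, 5C in red and circles, squares and triangles for replicates 1, 2 and 3. The mean level falls from 21.2 CPM per kilobase for *Meox1* to 1.3 for *Nkx3-2*, and the colours are mixed at each gene except *Pax1*.

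To ask whether an excess of *Mir483* altered these regulators, 5C was compared with WT by edgeR's quasi-likelihood test over all 16784 genes. No regulator passed the test. 0 of 10 had an adjusted p under 0.05, and 0 of 10 had an unadjusted p under 0.05, where 6.02% of all genes tested had one, 3.47% lower and 2.55% higher in 5C. DESeq2 and limma-voom also gave 0 of 10 on each count. By the study's criterion of an adjusted p under 0.05 with a fold change over 1.5, 0% of all genes were called, while DESeq2 called 11, limma-voom 0 and edgeR without a filter on low counts 319. In the filtered edgeR test the smallest adjusted p of any gene was 0.169. Of the regulators 4 had a negative and 6 a positive log2 fold change, while 50.7% of all genes tested had a negative one. Their median log2 fold change was 0.06, against -0.0024 over all genes, and the median size of the change without its sign was 0.12, against 0.11.

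**Figure D2:**
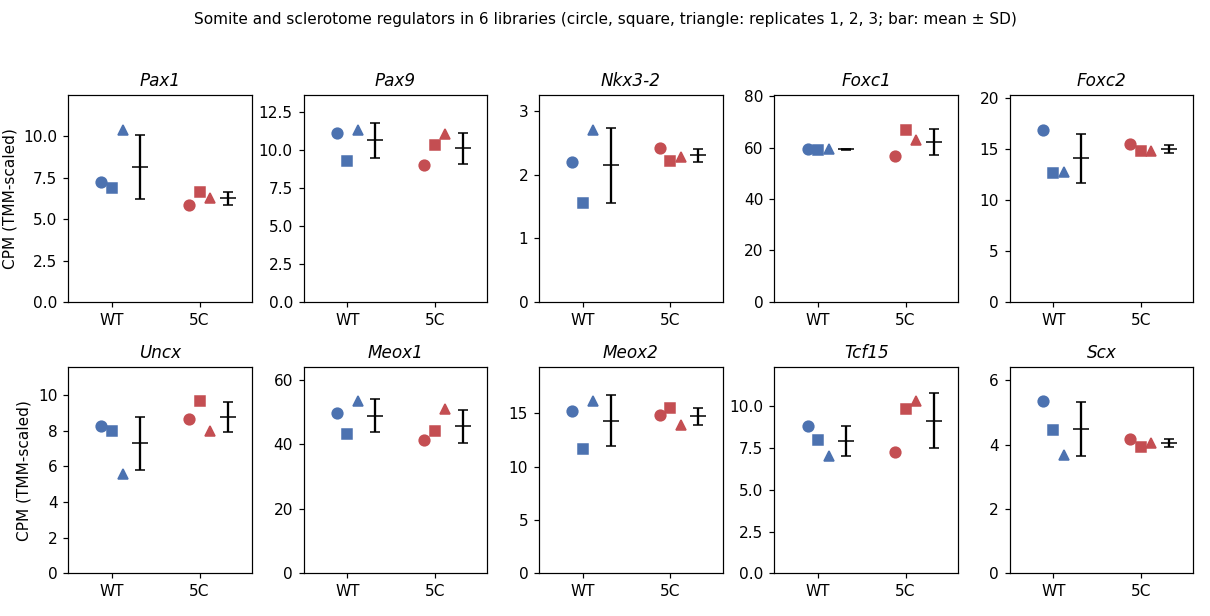
CPM of each regulator in the 3 WT (blue) and 3 5C (red) libraries, with circles, squares and triangles for replicates 1, 2 and 3 and the mean ± SD (n = 3) beside the points. The genotypes overlap in each panel except that of *Pax1*, where the 3 WT libraries at 6.87 to 10.4 CPM lie above the 3 5C libraries at 5.88 to 6.66 CPM.

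Among the genes of the early somite, *Tcf15* encodes paraxis, a basic helix-loop-helix factor needed for somites to become epithelial. *Tcf15* (ENSMUSG00000068079; GRCm38 chromosome 2, 152143561 to 152149097, plus strand) stood at 8.81, 7.99 and 7.02 CPM in the WT libraries and at 7.27, 9.82 and 10.3 CPM in those of 5C. 5C replicates 2 and 3 were above the WT libraries and 5C replicate 1 lay within them. The log2 fold change was 0.18 (standard error, SE, 0.17) and an adjusted p of 0.835 in edgeR's test, and its 95% interval, as a ratio of 5C to WT, ran from 0.87 to 1.49. On the log2 scale it ran from 0.09 without 5C replicate 3 to 0.33 without 5C replicate 1, and it was 0.27 without WT replicate 1, 0.11 without WT replicate 3 and 0.13 without both libraries low in Y-linked transcripts.

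*Foxc1* and *Foxc2* encode related forkhead factors that act together in paraxial mesoderm and are also active in the developing vessels and heart. *Foxc1* (ENSMUSG00000050295; chromosome 13, 31806633 to 31812476, plus strand) stood at 59.3, 59.2 and 59.3 CPM in the WT libraries and at 56.6, 66.9 and 62.9 CPM in those of 5C, so that the 3 WT libraries lay between the lowest and the highest 5C library. Its mean was 59.3 ± 0.052 CPM for WT and 62.1 ± 5.17 CPM for 5C (SD, n = 3 each). The spread in WT was below counting error, which was 5.18% of the level at the 372 counts of WT replicate 3. *Foxc1* had the narrowest interval of the regulators, with a log2 fold change of 0.07, an SE of 0.08 and a ratio between 0.93 and 1.18. The log2 fold change was 0.01 without 5C replicate 2, 0.13 without 5C replicate 1 and 0.01 without both replicate 2 libraries. *Foxc2* (ENSMUSG00000046714; chromosome 8, 121116171 to 121118895, plus strand) stood at 16.9, 12.7 and 12.8 CPM in the WT libraries and at 15.5, 14.8 and 14.8 CPM in those of 5C, where WT replicate 1 was above and the other WT libraries were below the 5C range. Its log2 fold change was 0.07, and its ratio of 5C to WT lay between 0.85 and 1.3. The sign rested on single libraries, since the log2 fold change was 0.24 without WT replicate 1 and -0.01 without WT replicate 2. Per length, *Foxc1* exceeded *Foxc2* by 1.99 ± 0.31 times in WT and 1.93 ± 0.21 times in 5C (SD, n = 3 each), and the ratios of both genotypes overlapped.

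*Meox1* and *Meox2* encode homeobox factors of the somite with partly shared duties in the axial skeleton, and *Meox2* is also needed for limb muscle. *Meox1* (ENSMUSG00000001493; chromosome 11, 101877510 to 101894374, minus strand) stood at 49.9, 43.3 and 53.4 CPM in the WT libraries and at 41.3, 44.3 and 51.1 CPM in those of 5C. The low and high ends were held by different genotypes, yet 2 of the 3 5C libraries fell inside the WT range. Its log2 fold change was -0.10 (SE 0.11), and the ratio lay between 0.79 and 1.1. Without both libraries low in Y-linked transcripts the log2 fold change was -0.16, and without WT replicate 3 it was -0.04. *Meox2* (ENSMUSG00000036144; chromosome 12, 37108540 to 37179534, plus strand) stood at 15.2, 11.6 and 16.1 CPM in the WT libraries and at 14.8, 15.5 and 13.9 CPM in those of 5C, with the 5C libraries inside the WT range. Its log2 fold change was 0.05 and its ratio lay between 0.83 and 1.29, but the log2 fold change turned to -0.08 without WT replicate 2, the lowest library. The ratio of *Meox1* to *Meox2* per length was 3.65 ± 0.27 in WT and 3.30 ± 0.53 in 5C (SD, n = 3 each), with overlap.

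Of the sclerotome genes, *Pax1* encodes a paired box factor that, with its close relative *Pax9*, drives ventral somite cells towards vertebral cartilage. Both are also expressed in pharyngeal pouch endoderm. *Pax1* (ENSMUSG00000037034; chromosome 2, 147361925 to 147393295, plus strand) stood at 7.24, 6.87 and 10.4 CPM in the WT libraries and at 5.88, 6.66 and 6.26 CPM in those of 5C. It was the only regulator whose genotypes did not overlap, 1 of 10, where 11.4% of all genes tested did not overlap, 5.1% with 5C lower and 6.26% with 5C higher. The gap was narrow, from 6.66 CPM in 5C replicate 2 to 6.87 CPM in WT replicate 2, which rest on 78 and 80 counts. The means were 8.16 ± 1.92 CPM for WT and 6.27 ± 0.391 CPM for 5C (SD, n = 3 each). In edgeR's test the log2 fold change was -0.36 (SE 0.18), with a p of 0.084 before and 0.781 after adjustment, and the ratio lay between 0.59 and 1.04. The high value of WT replicate 3, from 65 counts, set much of the difference, and without that library the log2 fold change was -0.18. Without WT replicate 2 it was -0.45 with an unadjusted p of 0.0477 in edgeR's test, which was the only unadjusted p under 0.05 for a regulator in any fit. With that library left out, 1803 of 17394 genes tested had such a p, against 1011 of 16784 with all libraries. Without both libraries low in Y-linked transcripts the log2 fold change of *Pax1* was -0.51.

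*Pax9* (ENSMUSG00000001497; chromosome 12, 56691767 to 56712822, plus strand) stood at 11.1, 9.27 and 11.3 CPM in the WT libraries and at 8.97, 10.3 and 11 CPM in those of 5C. The genotypes overlapped, the log2 fold change was -0.07 (SE 0.14), and the ratio lay between 0.77 and 1.19. Without 5C replicate 1, the lowest library, the log2 fold change was 0.01, without WT replicate 1 it was -0.02, without WT replicate 3 it was -0.03 and without both libraries low in Y-linked transcripts it was -0.17. Per kilobase of exon, the ratio of *Pax9* to *Pax1* was 1.36, 1.2 and 0.97 in WT and 1.36, 1.38 and 1.55 in 5C. With all annotated exons as the length, WT replicate 3 was the only library with more *Pax1* than *Pax9*. There *Pax1* had 65 and *Pax9* 71 counts. The order depends on the length taken. With the longest coding transcript, the mean of *Pax1* was 2.73 and that of *Pax9* 2.44 CPM per kilobase. A small part of each gene, 4.1% of the exon bases of *Pax1* and 3.7% of those of *Pax9*, lies under exons of *AI646519* and *Slc25a21* on the opposite strand. The exons of the other 8 regulators overlap no other annotated gene.

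*Nkx3-2* encodes a homeobox repressor that acts after *Pax1* and *Pax9* and promotes cartilage in the sclerotome. *Nkx3-2* (ENSMUSG00000049691; chromosome 5, 41761483 to 41764501, minus strand) stood at 2.2, 1.55 and 2.71 CPM in the WT libraries and at 2.42, 2.22 and 2.28 CPM in those of 5C. The 5C libraries lay close together inside the wider WT range. With 17 to 42 counts per library, *Nkx3-2* was the least deeply counted regulator. Its counting error was 24.3% of the level at 17 counts, and its ratio of 5C to WT was known only to lie between 0.75 and 1.6. Its log2 fold change was 0.14, and 0.27 without WT replicate 3 or -0.05 without WT replicate 2.

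*Uncx* encodes a homeobox factor of the caudal sclerotome, which forms the vertebral pedicles and the proximal ribs. *Uncx* (ENSMUSG00000029546; chromosome 5, 139543494 to 139548179, plus strand) stood at 8.29, 7.99 and 5.58 CPM in the WT libraries and at 8.67, 9.65 and 7.97 CPM in those of 5C. 5C replicates 1 and 2 were above the WT libraries, and 5C replicate 3 was just below WT replicate 2. It had the highest log2 fold change of the regulators, 0.24 (SE 0.17), with a p of 0.206 before and 0.797 after adjustment in edgeR's test, and a ratio between 0.9 and 1.55. WT replicate 3 was again the library furthest from the rest, here as the lowest with 35 counts, and without it the log2 fold change was 0.10.

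*Scx* encodes scleraxis, a basic helix-loop-helix factor of tendon and ligament precursors. *Scx* (ENSMUSG00000034161; chromosome 15, 76457452 to 76459458, plus strand) stood at 5.35, 4.46 and 3.67 CPM in the WT libraries and at 4.18, 3.93 and 4.06 CPM in those of 5C, with the 5C libraries inside the WT range. Its log2 fold change was -0.18 (SE 0.19), the adjusted p was 0.854 in edgeR's test and the ratio lay between 0.66 and 1.19. Without WT replicate 1, the library richest in yolk sac markers, the log2 fold change was -0.02, and without WT replicate 3 it was -0.29.

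**Figure D3:**
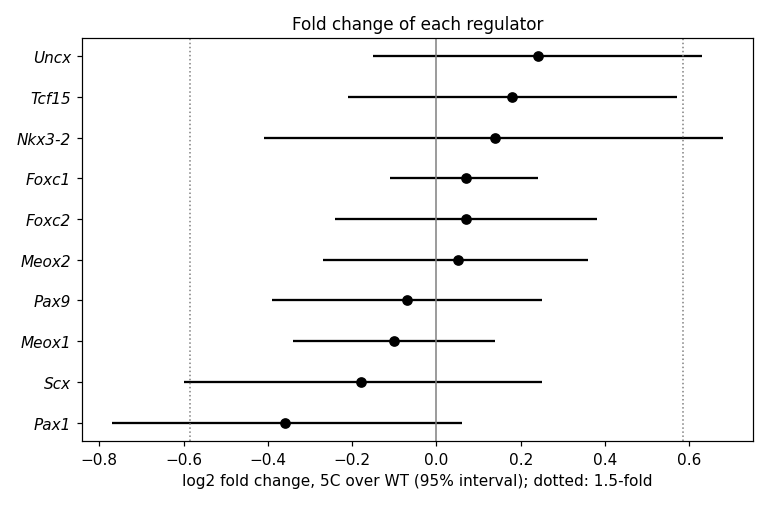
Log2 fold change of each regulator in 5C over WT as a point, with its 95% interval from edgeR's quasi-likelihood fit (n = 3 each) as a line, and a 1.5-fold change in either direction as dotted lines. Each interval includes 0, from *Pax1* at -0.36 to *Uncx* at 0.24.

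The intervals set how far the data reach. A ratio of 5C to WT beyond 1.5-fold in either direction lay outside the interval for *Pax9*, *Foxc1*, *Foxc2*, *Meox1*, *Meox2* and *Tcf15*. A decrease of that size lay inside it for *Pax1* and, narrowly, for *Scx*, and an increase of that size lay inside it for *Uncx* and *Nkx3-2*, at this depth and with 3 libraries per genotype. For *Tcf15* this was narrow, since its upper limit was 1.49. A change inside a gene's own interval cannot be told from the spread between replicates.

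The regulators did not rise and fall as 1 group across libraries. WT replicate 1 was above the median of the 6 libraries for 8 of 10 regulators and WT replicate 2 for 2 of 10. WT replicate 3 and 5C replicate 3 were above it for 6 each, and 5C replicates 1 and 2 for 4 each. WT replicate 3 was the most extreme, since it was the highest library for 5 regulators and the lowest for 3. Pearson correlations of log2 CPM between pairs of regulators, over the same 6 libraries, were positive for 27 and negative for 18 of 45 pairs, with a median of 0.14. They ran from -0.88 for *Pax1* with *Uncx* to 0.94 for *Pax9* with *Meox1*. With 6 points that share depth and scaling these are descriptions, and the *Pax1* and *Uncx* pair was set largely by WT replicate 3, highest in *Pax1* and lowest in *Uncx*.

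**Figure D4:**
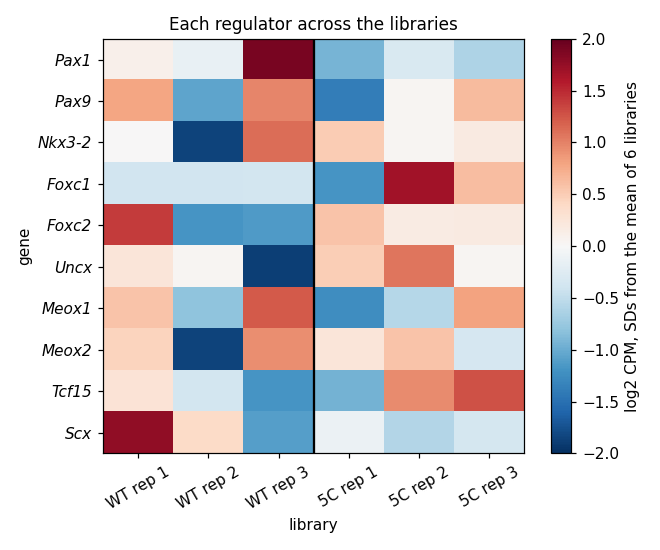
Log2 CPM of each regulator (rows) in each library (columns), as SDs from the gene's mean over 6 libraries, with a line between WT and 5C. Red and blue fall on both sides of the line, and WT replicate 3 holds the highest value of 5 genes and the lowest of 3.

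Genes whose level followed the regulators' average most closely were then sought among 15916 tested genes with a mean of at least 1 CPM. Likeness was Pearson's r over 6 libraries with the mean standardised log2 CPM of the 10 regulators. *St6galnac3* at 0.998, *Cpz* at 0.986, *Pak7* at 0.981, *Enpp3* at 0.980 and *Acsl4* at 0.978 were the closest. *Cpz* encodes a carboxypeptidase that binds Wnt proteins, and *Acsl4* encodes a fatty acid activating enzyme. In all, 115 of the 15916 genes, or 0.723%, had an r over 0.9. With 6 libraries these values are descriptions, and how many genes would reach them without any relation was not tested. The regulators did not rise and fall as 1 group, so likeness to their average describes that average alone. The log2 fold changes of the 5 closest genes lay between -0.02 and 0.04.

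Other genes of the somite and its derivatives were examined from 5 lists, and 0 of their members had an adjusted p under 0.05 in edgeR's test. For the lists together 1 gene had an unadjusted p under 0.05, against 6.02% of all genes tested. Over all genes tested, 50.7% had a negative log2 fold change and 11.4% had genotypes that did not overlap. Genes that act before the regulators, in segmentation and early somites, were tested for 7 of 13, with 0 under an unadjusted p of 0.05 and a median log2 fold change of -0.00. The others, among them the segment boundary genes *Mesp1*, *Mesp2*, *Ripply1* and *Ripply2*, were below 1 CPM in each library. The 3 tested members with the smallest p were *Dll1*, a Notch ligand, at 0.09, *Snai1*, a factor of epithelial to mesenchymal change, at -0.12 and *Tbx18*, a factor of the rostral somite, at -0.05 on the log2 scale.

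Of 13 dermomyotome and myotome genes tested, 11 had a positive log2 fold change, 1 had an unadjusted p under 0.05 and the median was 0.06. Over all genes tested, 50.7% had a negative log2 fold change and 2.55% were higher at that p. That gene was *Sim1*, a basic helix-loop-helix factor found in lateral dermomyotome and in the developing hypothalamus. *Sim1* stood at 15.5, 14.1 and 17.5 CPM in the WT libraries and at 19.3, 21.4 and 19.6 CPM in those of 5C, with each 5C library above each WT library. Its log2 fold change was 0.36 (SE 0.11), with a p of 0.0106 before and 0.781 after adjustment in edgeR's test. Of these 13 genes 2 did not overlap between genotypes, where 11.4% of all genes tested did not. *Myog*, which drives muscle differentiation, was -0.20 on the log2 scale.

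Of 15 genes of the Hedgehog and BMP signals that reach the sclerotome, all were tested, 7 had a negative log2 fold change and the median was 0.01. *Hhip*, a Hedgehog antagonist and pathway target, stood at 17.4, 17.3 and 16.3 CPM in the WT libraries and at 11.9, 15.5 and 15.7 CPM in those of 5C, without overlap, with a log2 fold change of -0.25 and an unadjusted p of 0.0852 in edgeR's test. The other pathway target named by the rule went the other way, since *Gli1* measured 38.0 ± 1.34 CPM for WT and 40.8 ± 0.127 CPM for 5C (SD, n = 3 each), or 0.10 on the log2 scale, also without overlap. These were 2 of the 15 genes, where 11.4% of all genes tested did not overlap. *Gas1*, a Hedgehog co-receptor, was also 0.10. The point furthest left in the plot of the lists was *Ihh* at -0.74, singled out after its values were seen, which stayed at or below 2.31 CPM in each library.

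Downstream of the regulators, 11 of 16 genes of chondrogenesis were tested, 8 had a negative log2 fold change and the median was -0.10. *Col11a1*, a cartilage collagen, was -0.15 and *Sox6*, which helps *Sox9* in cartilage, was -0.14 on the log2 scale. *Matn1*, *Matn4*, *Gdf5* and *Comp*, made by later cartilage, joint and tendon, were below 1 CPM in each library. *Acan*, the main cartilage proteoglycan and a gene that the rule does not name, was also too low to be tested. It stood at 0.997, 0.601 and 1.75 CPM in the WT libraries and at 0.424, 0.598 and 0.427 CPM in those of 5C. The genotypes did not overlap, but WT replicate 2 at 0.601 CPM and 5C replicate 2 at 0.598 CPM were almost level. Among all genes tested, which leave out *Acan*, 11.4% did not overlap, 5.1% with 5C lower. Without WT replicate 2 the chondrogenesis genes with an unadjusted p under 0.05 went from 0 of 11 to 4 of 12 tested, and the median to -0.20. The count over all genes also rose, from 1011 of 16784 to 1803 of 17394 tested.

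Of 12 tendon genes 10 were tested, 6 had a negative log2 fold change and the median was -0.06. *Mkx*, a homeobox factor of tendon cells, stood at 11.3, 11.4 and 9.09 CPM in the WT libraries and at 13.0, 14.3 and 12.1 CPM in those of 5C, without overlap, with a log2 fold change of 0.29 and an unadjusted p of 0.0563 in edgeR's test. It was the 1 of 10 tested tendon genes without overlap, where 11.4% of all genes tested did not overlap. *Bgn*, a matrix proteoglycan, was -0.38 and *Col12a1*, a fibril-associated collagen, was 0.09 on the log2 scale. *Tnmd*, made by mature tendon, was at or under 0.105 CPM in each library. Without WT replicate 1 the median of the tendon list was 0.12.

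**Figure D5:**
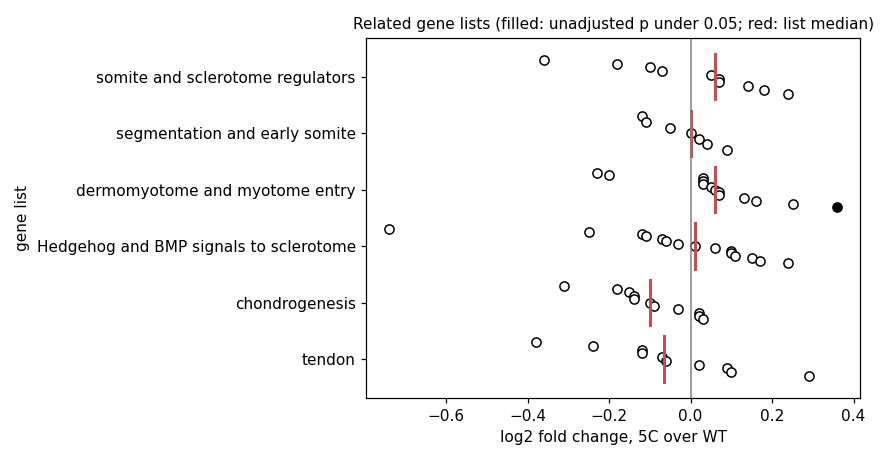
Log2 fold change of each tested gene in 5C over WT, by list, with genes at an unadjusted p under 0.05 filled and the list median in red. The medians lie between -0.10 for chondrogenesis and 0.06 for the regulators and the dermomyotome, and *Sim1* at 0.36 is the only filled point.

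Markers of other tissues were set beside the regulators, and some of these tissues also express regulators. Of 8 gut and pharyngeal endoderm markers 7 had a negative log2 fold change, the median was -0.31 and 1 was lower with an unadjusted p under 0.05, where 50.7% of all genes had a negative log2 fold change and 3.47% were lower at that p. The list summed to between 173 and 326 CPM in WT and between 149 and 218 CPM in 5C. Its highest sum, 326 CPM, was in WT replicate 1, the library richest in yolk sac markers. What that library adds to the list was not tested. The gene under 0.05 was *Cdh1*, named after its values were seen, at 42.6, 14.3 and 22.2 CPM in the WT libraries and at 15.8, 14.9 and 17.5 CPM in those of 5C. *Krt18*, the most abundant marker of the list, was -0.38, with 114 CPM in WT replicate 1 and 44.4 to 85.9 CPM in the other libraries. The transcription factor genes of the list, *Foxa1*, *Foxa2* and *Sox17*, were -0.25, -0.11 and 0.12. Of 8 visceral endoderm and yolk sac markers, 8 had a negative log2 fold change with a median of -2.24, but 0 were without overlap between genotypes. Their sum was highest in WT replicate 1, at 6039 CPM. Next came 5C replicate 3 at 1170 CPM, above WT replicate 3 at 425 CPM and WT replicate 2 at 180 CPM. The lowest sums were 119 CPM for 5C replicate 1 and 121 CPM for 5C replicate 2. *Afp*, the most abundant, measured 3091 CPM in WT replicate 1, 632 CPM in 5C replicate 3 and 84.8 to 227 CPM in the other libraries. How far WT replicate 1 alone sets the median of this list was not tested. Of 7 endothelial markers, a tissue that shares *Foxc1* and *Foxc2*, 4 had a negative log2 fold change and the median was -0.01 with *Kdr* at -0.08, and the list summed to 359 to 376 CPM in WT and 346 to 376 CPM in 5C. Of 8 head and branchial mesenchyme markers 3 had a negative log2 fold change, the median was 0.01, and *Twist1*, their most abundant gene, stood at 65.5, 58.7 and 70.2 CPM in the WT libraries and at 74.1, 77.9 and 72.1 CPM in those of 5C, without overlap, with a p of 0.03 before and 0.781 after adjustment in edgeR's test. Of these 8 markers 2 did not overlap, where 11.4% of all genes tested did not. The part of these tissues in the levels of *Pax1*, *Pax9*, *Foxc1* and *Foxc2* was not tested.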

How the data were processed

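Poly(A)-selected, strand-specific libraries of 3 WT and 3 5C pools were sequenced as single-end reads. The authors aligned them with STAR to GRCm38 and deposited the raw counts by Ensembl gene, in whole numbers and unnormalized. The strand column used in counting is not given in the sources used here. Libraries held 6357343 to 19151368 counts, so 3 counts, taken as the floor, were 0.157 to 0.472 CPM. These floors cover counting error only. Symbols, positions, lengths and 3′ UTRs came from GENCODE M21 on GRCm38, which held 55141 of the 55401 identifiers.

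Genes were kept by filterByExpr, scaling factors were TMM (trimmed means of M values), and edgeR 4.0.16 (R 4.3.3) tested 5C against WT by the legacy quasi-likelihood F-test over all genes, two-sided, with Benjamini-Hochberg adjustment. Standard errors were the log2 fold change divided by the square root of F, and 95% intervals used the t quantile of the fit's degrees of freedom. Log2 CPM used a prior count of 2. The steps were tested on simulated data. Titles do not say that the pools came from separate litters, so p-values measure the spread between these libraries.

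The members and lists were chosen with earlier results of these data known. Genes named were the 10 members, *Mir483*, *Igf2*, the 3 smallest p of each somite list, the most abundant gene of each marker list and the 5 genes most like the members. Some genes that this rule names are not reported here. Alternatives used DESeq2 1.42.0, limma-voom 3.58.1, other scalings and filters, offsets on transcript GC content, the replicate block and each library left out.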

Additional observations from a re-analysis of the deposited data

How the results depend on the processing

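For the regulators, the count with an adjusted p under 0.05 was 0 in each alternative, and 4 of 10 were lower in 5C in each of the 12 alternatives that kept all libraries. The lowest adjusted p of a regulator in any fit was 0.479. The count of all genes called by adjusted p and fold change moved from 0 to 11 with DESeq2, 319 without a filter on low counts and 3 with robust moderation, and 0 to 1 when single libraries were dropped, with 0 regulators among the calls. With single libraries dropped, regulators with an unadjusted p under 0.05 went from 0 to 1, those lower in 5C from 3 to 7, both highest without WT replicate 2, and their median log2 fold change from -0.07 to 0.09. Log2 fold changes that changed sign went from -0.01 to 0.24 for *Foxc2*, -0.08 to 0.12 for *Meox2*, -0.05 to 0.27 for *Nkx3-2* and -0.15 to 0.01 for *Pax9*. With both libraries low in Y-linked transcripts left out, chosen after the data were seen, the regulators' median was -0.07, *Meox2* -0.12 and *Nkx3-2* -0.03. Genes at an unadjusted p under 0.05 then numbered 1 for Hedgehog and BMP signals, 3 for chondrogenesis and 1 for tendon, with medians of -0.18 for chondrogenesis and -0.23 for tendon. They numbered 886 of 17355 over all genes. Without a filter these 3 lists had 1 each, and 2170 of 33139 genes were under that p. With GC-content offsets the Hedgehog and BMP list had 2, also with the replicate block, where the dermomyotome list had 0. Leaving out 1 library gave 0 to 1 for Hedgehog and BMP signals, 0 to 4 for chondrogenesis, 0 to 2 for dermomyotome and 0 to 1 for tendon, and medians from -0.20 to -0.07 for chondrogenesis and -0.15 to 0.12 for tendon. The count over all genes then ran from 456 of 17396 without 5C replicate 2 to 1803 of 17394 without WT replicate 2. Causes were not tested. Under the replicate block, 0 genes were called, 782 had an unadjusted p under 0.05 and *Pax1* was -0.35. Over all genes the deviations of same-numbered libraries correlated at -0.174, 0.202 and -0.166 for replicates 1, 2 and 3, so the numbers were not taken as pairs, although both replicate 2 libraries were low in Y-linked transcripts. Transcripts of the regulators had a median GC content of 59.2%, against 49% for tested genes, and log2 fold change fell with GC content across 16770 genes, which are not independent (Spearman rho -0.313). With GC-content offsets *Foxc1* was 0.13 and *Pax1* -0.29.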

Other observations

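Neural markers, which the sections above did not describe, had mostly positive log2 fold changes in 5C. Of 7 listed genes of neural progenitors and neurons, 6 had a positive log2 fold change, the median was 0.24 and 3 had an unadjusted p under 0.05. Over all genes tested, 50.7% had a negative log2 fold change and 2.55% were higher at that level. These 3, named after their values were seen, were *Elavl4*, an RNA-binding protein of neurons, *Sox2*, a factor of neural progenitors, and *Stmn2*, a microtubule regulator of growing axons. *Elavl4* stood at 59.1, 56.3 and 58.5 CPM in the WT libraries and at 63.7, 79.4 and 73.1 CPM in those of 5C, with a log2 fold change of 0.31. *Sox2* stood at 74.2, 84.9 and 75.1 CPM in the WT libraries and at 89.4, 92.6 and 95.9 CPM in those of 5C, with 0.25. The adjusted p was 0.781 for all 3 in edgeR's test. *Nes*, the most abundant gene of the list, was -0.06, and the list summed to 925 to 996 CPM in WT and 922 to 1026 CPM in 5C. Of 6 limb mesenchyme markers 4 had a negative log2 fold change and the median was -0.05, with *Prrx1* at -0.02. Of 7 primitive erythroid markers 2 had a negative log2 fold change and the median was 0.11, with *Hbb-y* at 0.12.

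One limb marker stood apart in a single library. *Tbx4*, a factor of the hindlimb bud and lung, measured 399 CPM in WT replicate 3 and 5.48 to 9.39 CPM in the other 5 libraries, which gave a log2 fold change of -4.06. The 3 nearest tested coding genes on either side of it on chromosome 11, among them its relative *Tbx2*, reached 0.81 to 1.10 times their highest other library in WT replicate 3. The other genes more than 10 times above each other library in WT replicate 3 were *Asmt*, *Celf6*, *Dchs2*, *G630022F23Rik*, *Gm17349*, *Gm47863*, *Nrxn2*, *Pou3f1* and an Ensembl gene without a symbol. These genes were named after their values were seen. WT replicate 3 was also the library that held the highest *Pax1* and the lowest *Uncx*, and whether these belong together was not tested.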
